A study of Homo sapiens with 2 samples.

Results

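POU5F1 and NANOG, the genes of the transcription factors OCT4 and NANOG, were examined together with POU5F1B, NANOGP1 and NANOGP8, 3 copies of them elsewhere in the genome. These 5 genes were taken by symbol from the 62700 genes of the gene table, and all 5 were found. The RNA came from TCam-2, an established human testicular cancer cell line of the seminoma type, after transduction with a FLAG-tagged DDX53, a DEAD-box RNA helicase. Both libraries carry the label DDX53 overexpression and are replicates of 1 group. The design names GFP-FLAG-transduced and untransduced cells as controls. The control libraries were not analysed here. No effect of DDX53 on these genes was therefore computed, and the labelled overexpression itself could not be checked against a control. The promoter of the construct, and whether the cells are a clone or a pool, are not given in the sources used here.

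OCT4 is a POU-domain factor and NANOG a homeodomain factor. Together they hold embryonic stem cells and primordial germ cells in an undifferentiated state, and both are diagnostic markers of seminoma and embryonal carcinoma. Their mRNAs were copied back into the genome many times. POU5F1B and NANOGP8 arose as such copies, and both keep an open reading frame, although the annotation gives the transcripts of POU5F1B further exons outside the copied part. NANOGP1 is a tandem duplicate that keeps the introns of NANOG. Because the copies are nearly identical to their parents, a short read can fit more than 1 gene.

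Reads in genes numbered 24137664 for replicate 1 and 22198929 for replicate 2. DDX53 had 146 and 147 reads, 6.05 and 6.62 CPM (reads of a gene scaled by the sum over all genes of the library). The tissue label was checked with marker lists: 8 of 8 seminoma and germ cell markers reached 1 CPM in both libraries, with summed levels of 2679 and 2628 CPM. In those sums TFAP2C alone had 1255 and 1247 CPM. Of 6 embryonal carcinoma markers 4 reached 1 CPM in both libraries (TDGF1, DNMT3B, GDF3 and TNFRSF8), with summed levels of 262 and 227 CPM. Of 5 yolk sac and trophoblast markers 2 did (CGA and HAND1), of 6 markers of testis somatic cells 2 (AMH and SOX9), and of 2 leukocyte and endothelial markers 0. Over all 62700 genes the share was 21.7%. The leukocyte marker PTPRC had 0 reads in either library, and so had AFP and CGB3 of the yolk sac and trophoblast list.

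The sequences show how little separates NANOG from NANOGP8. NANOG (ENSG00000111704.11) lies on the plus strand of chromosome 12, from 7787794 to 7799141 (GENCODE 29, GRCh38), and its longest transcript, NANOG-201, has 4 exons. NANOGP8 (ENSG00000255192.7) lies on the minus strand of chromosome 15, from 35084193 to 35085110, as 1 exon that is annotated as protein-coding. Over the 918 bases of the NANOG coding sequence the reference sequences differ at 5 positions, an identity of 99.5%. With positions counted from 1 at the first base of the start codon, and the base of NANOG written first, the differences are C47A, G144A, G246T, T531C and G759C. The longest run without a difference spans 284 bases. The 5 windows are shown because only reads that cover one of the capital letters can tell the coding sequences apart:
NANOG, bases 32 to 62: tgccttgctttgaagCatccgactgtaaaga
NANOGP8, bases 32 to 62: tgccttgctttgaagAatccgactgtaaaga
NANOG, bases 129 to 159: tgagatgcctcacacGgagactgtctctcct
NANOGP8, bases 129 to 159: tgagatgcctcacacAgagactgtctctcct
NANOG, bases 231 to 261: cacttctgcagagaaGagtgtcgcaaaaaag
NANOGP8, bases 231 to 261: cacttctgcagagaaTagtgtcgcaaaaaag
NANOG, bases 516 to 546: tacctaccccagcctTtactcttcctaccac
NANOGP8, bases 516 to 546: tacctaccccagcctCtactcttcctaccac
NANOG, bases 744 to 774: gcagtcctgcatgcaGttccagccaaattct
NANOGP8, bases 744 to 774: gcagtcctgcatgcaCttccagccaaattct

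NANOGP1 (ENSG00000176654.13) lies on the same strand of chromosome 12 as NANOG, from 7890801 to 7900140, 91660 bases beyond its end. Its transcript NANOGP1-201 has 4 exons and 915 bases. Against the coding sequence of NANOG it had 22 mismatches and a gap of 3 bases, an identity of 97.6%, and its longest exact run was 322 bases, longer than that of NANOGP8. The place of the gap is not unique, since a gap slightly further along gives the same NANOGP1 sequence. The gap is shown as aligned, with bases 500 to 502 of NANOG in capitals:
NANOG: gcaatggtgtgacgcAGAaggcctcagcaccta
NANOGP1: gcaatggtgtgacgcaggcctcagcaccta

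POU5F1 (ENSG00000204531.21) lies on the minus strand of chromosome 6, from 31164337 to 31180731, within the major histocompatibility region. POU5F1B (ENSG00000212993.6), compared over the coding sequence of POU5F1, had 23 mismatches, 3 gap bases, an identity of 97.9%, and a longest exact run of 167 bases. The processed pseudogenes POU5F1P3, on chromosome 12 from 8133772 to 8134849, and POU5F1P4, on chromosome 1 from 155433178 to 155434262, had identities of 98.1% and 97.2%, with 2 gap bases each. The differences are therefore denser than in NANOGP8. Bases 207 to 247 of the coding sequence are shown. Of the windows of that size without gaps, this one was taken for the largest count of differences in whichever pseudogene differs less there. Capitals mark the differing bases, and in POU5F1 every position at which either pseudogene differs:
POU5F1: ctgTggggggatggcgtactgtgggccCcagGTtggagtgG
POU5F1P3: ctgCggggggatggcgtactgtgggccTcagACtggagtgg
POU5F1P4: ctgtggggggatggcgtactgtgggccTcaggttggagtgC

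How much of each gene could give a read that fits only that gene was counted with stretches of 75 bases, since the read length is not given in the sources used here. In NANOGP8 only 255 of 844 stretches (30.2%) occurred in no other gene, while 497 (58.9%) also occurred in NANOG and 279 (33.1%) in NANOGP1. Seen from NANOG, the same 497 stretches were 9.10% of 5461, because most of NANOG-201 lies behind the coding sequence and NANOGP8 is annotated without that part. In NANOGP1, 1649 of 2027 stretches (81.4%) occurred in no other gene, and 345 (17.0%) occurred in NANOG. Over all listed transcripts of each gene, therefore, most stretches of NANOGP8 were shared, and most of NANOGP1 were not. For POU5F1, 607 of 2945 stretches (20.6%) were shared on that count. Single transcripts gave higher shares. In POU5F1-201, the main transcript of POU5F1, 606 of 1346 stretches (45.0%) occurred in another gene, and in NANOGP1-201 354 of 841 (42.1%). POU5F1B, POU5F1P3 and POU5F1P4 held 283, 270 and 181 of the stretches of POU5F1. In POU5F1B, which lies on chromosome 8, 3973 of 4889 stretches (81.3%) occurred in no other gene. The gene sharing most with POU5F1B was PCAT1, a long non-coding RNA gene that overlaps it, with 633 stretches. These counts depend on the size chosen: with 31 bases, 82.5% of NANOGP8 was found in NANOG, and with 100 bases 45.8%.

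**Figure D1:**
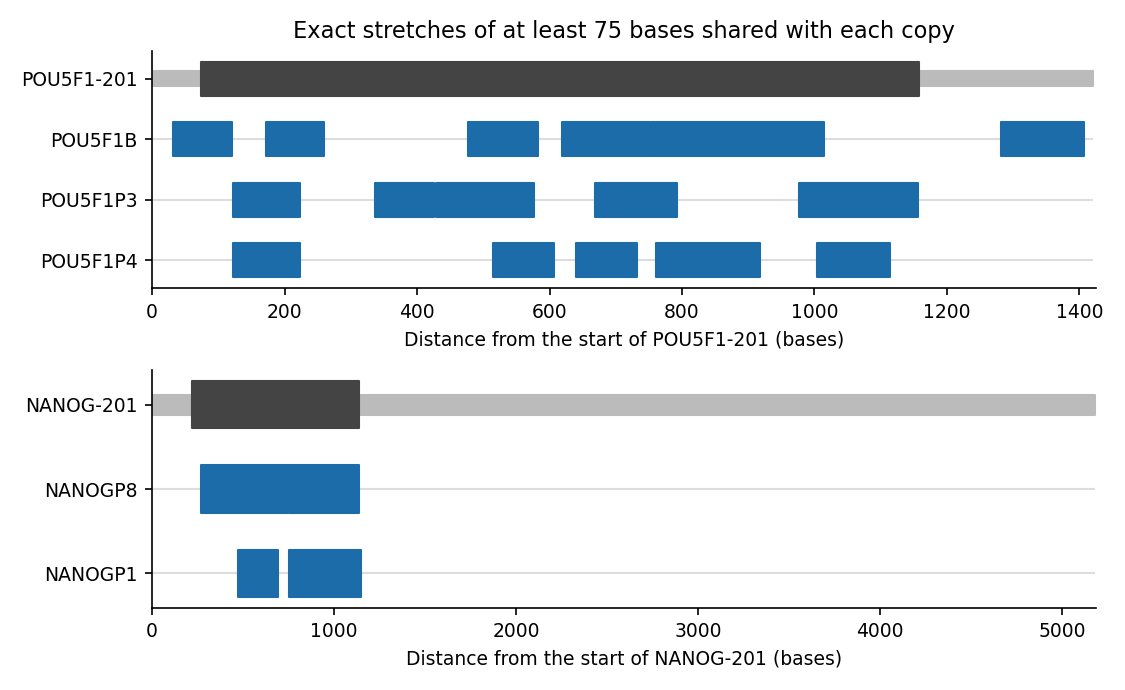
Exact stretches of at least 75 bases (blue) that POU5F1-201 and NANOG-201 share with each copy, by distance in bases from the transcript's start; the grey bar is the transcript and the dark bar its coding sequence. In NANOG-201 the stretches shared with NANOGP8 cover 867 bases in 5 runs that touch at single differing bases, from base 267 to 1137, and in POU5F1-201 the stretches shared with POU5F1B cover 800 bases in 6 runs.

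The levels spanned 4 orders of size, and each parent stood far above its copies. Genes were compared with each other in TPM, a transcript's share of all transcripts, which is set per length. POU5F1 was highest, with 2102 TPM in replicate 1 and 2159 TPM in replicate 2. Its rank was 82 and 80 of 57815 genes with a summed TPM. NANOG followed with 546 and 605 TPM, ranks 261 and 235. NANOGP8, the copy of NANOG that encodes nearly the same protein, had 43.7 and 41.0 TPM. NANOGP1 had 8.40 and 8.27 TPM. POU5F1B was lowest, with 0.213 and 0.124 TPM. In this order no neighbours overlapped between the libraries. The TPM of POU5F1 was 3.71 ± 0.198 times that of NANOG (SD of the ratio, n = 2), and that of NANOG was 13.6 ± 1.58 times that of NANOGP8 (SD, n = 2).

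Read counts gave the same order for the parents and for NANOGP8, but not for the lowest pair. POU5F1 received 45651 reads in replicate 1 and 42646 in replicate 2, which is 1891 CPM (1874 to 1909, 95% Wilson interval) and 1921 CPM (1903 to 1939). NANOG received 17012 and 15332 reads, or 705 CPM (694 to 715) and 691 CPM (679.8 to 702). For both parents the intervals of the libraries overlapped. NANOGP8 received 1576 and 1346 reads, or 65.3 CPM (62.1 to 68.6) and 60.6 CPM (57.5 to 64.0). POU5F1B received 39 and 25 reads, or 1.62 CPM (1.18 to 2.21) and 1.13 CPM (0.763 to 1.66). NANOGP1 received 0 reads in both libraries, which allows up to 3 reads, 0.124 CPM in replicate 1 and 0.135 CPM in replicate 2. Thus NANOGP1 lay above POU5F1B in TPM and below it in reads. At least 1 CPM in both libraries was reached by 4 of the 5 genes, against 21.7% of the 62700 genes of the table.

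**Figure D2:**
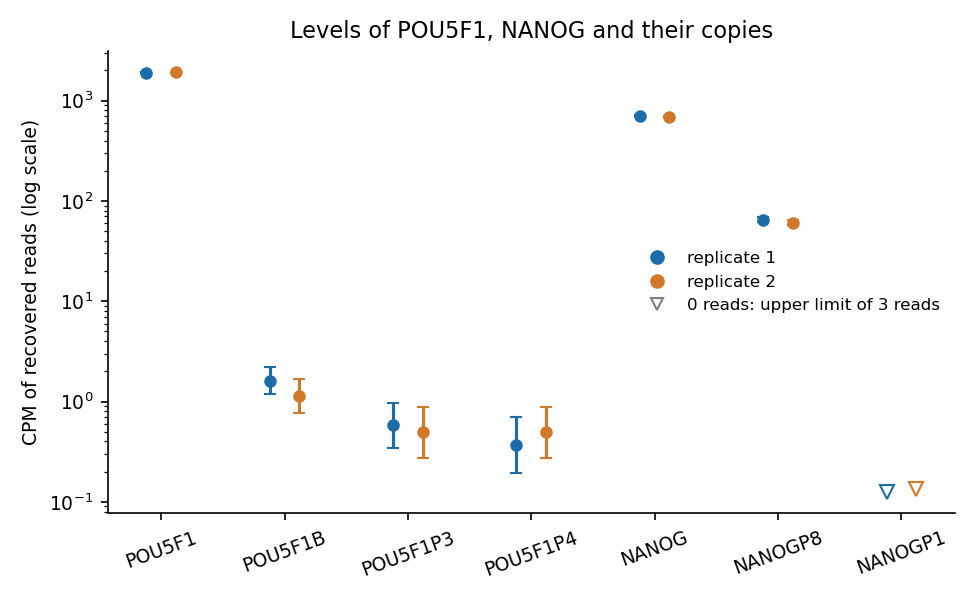
CPM of recovered reads (log scale) of the 5 genes and of the 2 other copies with at least 10 reads in a library, for replicate 1 (blue) and replicate 2 (orange). Bars are 95% Wilson intervals, too short to see for the highest genes, and open triangles mark the limit of 3 reads for NANOGP1, which had 0 reads; POU5F1 lies at 1891 and 1921 CPM, and POU5F1B, POU5F1P3 and POU5F1P4 lie under 2 CPM.

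The gene table lists 17 further genes of the families: 9 NANOGP and 6 POU5F1P pseudogenes, NANOGNB and POU5F2. Of these, 12 had 0 reads in both libraries and 3 had a single read in 1 library and none in the other. The 2 with at least 10 reads were POU5F1P3, with 14 and 11 reads, and POU5F1P4, with 9 and 11 reads. Their levels were 0.580 and 0.496 CPM for POU5F1P3 and 0.373 and 0.496 CPM for POU5F1P4. No further family gene exceeded 0.180 TPM in either library. The highest copy was thus NANOGP8, and POU5F1P3 and POU5F1P4 stayed below POU5F1B in reads.

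As a share of the family, the copies of NANOG held 8.48% of the reads in replicate 1 (1576 of 18588; 95% Wilson interval, 8.09 to 8.89) and 8.07% in replicate 2 (1346 of 16678; 7.67 to 8.49). All of these reads were given to NANOGP8. By TPM, NANOGP8 and NANOGP1 together held 8.70% and 7.54%. POU5F1B held 0.0854% of the reads of its family in replicate 1 (39 of 45690; 0.0625 to 0.117) and 0.0586% in replicate 2 (25 of 42671; 0.0397 to 0.0865). By TPM its share was lower, 0.0101% and 0.00574%. Reads are not set per length, so the read share of a copy also follows the lengths of the gene models.

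The libraries were then compared with each other. Of the 15299 genes tested, 2008 (13.1%) differed beyond counting noise (two-sided exact binomial test in edgeR, adjusted p under 0.05). Among the members 4 were tested, since NANOGP1 had no reads, and 1 was called. That one was POU5F1, higher in replicate 2 like 6.78% of all genes tested, with a log2 difference of 0.030 on TMM library sizes (trimmed mean of M values), replicate 2 against replicate 1 (exact binomial test in edgeR, adjusted p = 0.018). The call rested on the scaling: with total reads the difference was 0.023 and the adjusted p 0.11, with DESeq2's size factors 0.021 and 0.15, and with all genes that had a read in the test the adjusted p was 0.032. On the same TMM scale NANOG had a log2 difference of -0.021 (edgeR, exact binomial test, adjusted p = 0.45), NANOGP8 of -0.097 (0.25) and POU5F1B of -0.29 (0.43). The pseudocount of 1 CPM is close to the level of POU5F1B, whose difference was -0.48 with a pseudocount of 0.1 CPM on total reads. In TPM the difference of NANOG had the opposite sign, 0.15 on the log2 scale.

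The transcripts of POU5F1 were almost entirely of 1 kind. POU5F1-201, which spans 5 exons and encodes the full-length protein often called OCT4A, held 99.9% of the gene's TPM in each library, with 2100 TPM in replicate 1 and 2155 TPM in replicate 2. Its coding sequence has 1083 bases. The other 6 transcripts in the table are POU5F1-203, which retains an intron, and 5 models with shorter coding sequences of 495 or 573 bases. Together they had 1.83 TPM in replicate 1 and 3.20 TPM in replicate 2, and 3 of them were listed at 0 in both. POU5F1-206 was the highest of them in replicate 1, with 1.09 TPM, and POU5F1-203 in replicate 2, with 1.38 TPM. POU5F1-202, whose first exon lies 10038 bases upstream of the start of POU5F1-201, was among those listed at 0. Of 7040 genes with several transcripts and at least 10 TPM, 3.34% in replicate 1 and 3.86% in replicate 2 had a top share as high as that of POU5F1.

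NANOG showed the reverse, with its TPM spread over 4 transcripts. NANOG-201, which holds the whole coding sequence and 4046 bases behind it, had 172 TPM in replicate 1 and 161 TPM in replicate 2, or 31.5% and 26.7% of the gene. NANOG-202, whose model consists of the coding sequence alone, had 145 TPM in each library, or 26.5% and 23.9%. NANOG-203, a model of 2 exons and 558 bases without an annotated coding sequence, had 142 and 188 TPM, or 26.0% and 31.04%. NANOG-204 starts 1602 bases upstream of NANOG-201, and its model breaks off within the coding sequence, after 559 coding bases. It had 87.2 and 111 TPM, or 16.0% and 18.4%. NANOG-201 thus led in replicate 1 and NANOG-203 in replicate 2. The share of NANOG-201 fell by 4.85 percentage points from replicate 1 to replicate 2, a move at least that large being seen in 34.9% of the 7040 genes. Few genes were spread as widely: 3.58% in replicate 1 and 3.24% in replicate 2 had a top share at or below that of NANOG.

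Length changes this picture. Since NANOG-201 has 5183 bases and the other 3 models have 558 to 870, NANOG-201 accounted for 76.2% of the reads that TPM predicts for NANOG in replicate 1 and 72.1% in replicate 2. NANOG-202 lacks 48 coding bases of NANOG-201, bases 502 to 549, at chromosome 12 from 7794679 to 7794726. They are shown in capitals, with 12 bases on each side, because NANOG-201 holds them and NANOG-202 does not, and because they contain T531C, 1 of the 5 positions that differ in NANOGP8:
NANOG-201: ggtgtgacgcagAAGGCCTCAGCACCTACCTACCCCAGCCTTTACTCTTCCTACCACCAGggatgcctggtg

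**Figure D3:**
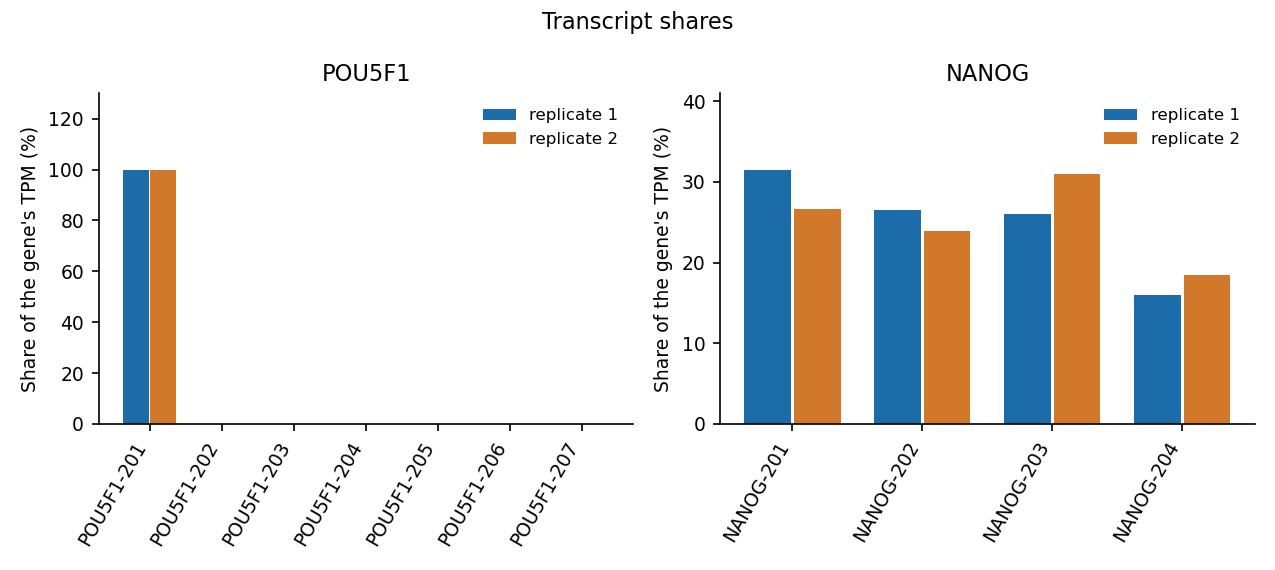
Share of the gene's TPM (%, bars from 0) held by each transcript of POU5F1 (left) and NANOG (right), for replicate 1 (blue) and replicate 2 (orange); the vertical scales differ. POU5F1-201 holds 99.9% in each library, whereas the 4 transcripts of NANOG hold between 16.0% and 31.5%.

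Among the copies, NANOGP1-201 held 78.2% of NANOGP1's TPM in replicate 1 and 83.5% in replicate 2, and NANOGP1-202 the remainder. NANOGP8 was represented by a single transcript. POU5F1B-201 had 0.123 and 0.124 TPM, while POU5F1B-202 had 0.0895 TPM in replicate 1 and was listed at 0 in replicate 2. Of the 19 transcripts that GENCODE 29 gives to the 5 genes, 16 were in the TPM table, 12 of them in the same version. POU5F1-201, POU5F1-207, NANOG-201 and NANOGP8-201 were there in another version, so their lengths in the authors' index may differ from those used here.

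Finally, the tables were set against each other for each gene, by comparing its reads with the number that its TPM and transcript lengths predict. Salmon, which the submitters' processing notes name without its role, divides reads that fit several transcripts among them. The counting rule behind the gene table is not given in the sources used here. Over the 7432 genes that reached 10 TPM in each library, the log2 ratio of reads to prediction had a median of 0.078 in replicate 1 and 0.081 in replicate 2, with quartiles at -0.12 and 0.20 in each. The parents lay close to this range. POU5F1 had 45651 reads against 48285 predicted in replicate 1 and 42646 against 45761 in replicate 2, log2 ratios of -0.081 and -0.10. NANOG had 17012 against 18921 and 15332 against 17304, log2 ratios of -0.15 and -0.17. Both parents thus had slightly fewer reads than predicted, and 28.4% of the genes in replicate 1 lay at or below POU5F1 and 22.8% at or below NANOG.

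The copies departed in opposite directions. NANOGP8 had 1576 reads against 648 predicted in replicate 1 and 1346 against 562 in replicate 2, log2 ratios of 1.28 and 1.26. In each library 98.3% of the genes lay at or below it. The prediction scales with the length of the gene model, 918 bases in GENCODE 29. RefSeq gives NANOGP8 1886 bases, and with that length, chosen after the data were seen, the log2 ratios were 0.24 and 0.22. A longer model lowers the ratio by construction, and the length in the authors' index is not known. The change of length is therefore no test of the excess, whose cause was not tested. POU5F1B had 39 reads against 13 predicted and 25 against 9, log2 ratios of 1.64 and 1.50, at a level where a few reads decide the ratio. Of its exonic bases, 17.1% lie in exons of other genes on the same strand.

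NANOGP1 had no read where 156 were predicted in replicate 1 and 135 in replicate 2. The same was true of 134 of the 9423 genes that reached 5 TPM in each library (1.42%). None of the exonic bases of NANOGP1 (0 of 2032) lie in GENCODE 29 exons of another gene on either strand. Over both of its transcripts, 81.4% of the stretches of 75 bases occur in no other gene. In NANOGP1-201 alone, which held most of its TPM, 354 of 841 stretches (42.1%) occur in another gene. The cause of the missing reads was not tested.

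**Figure D4:**
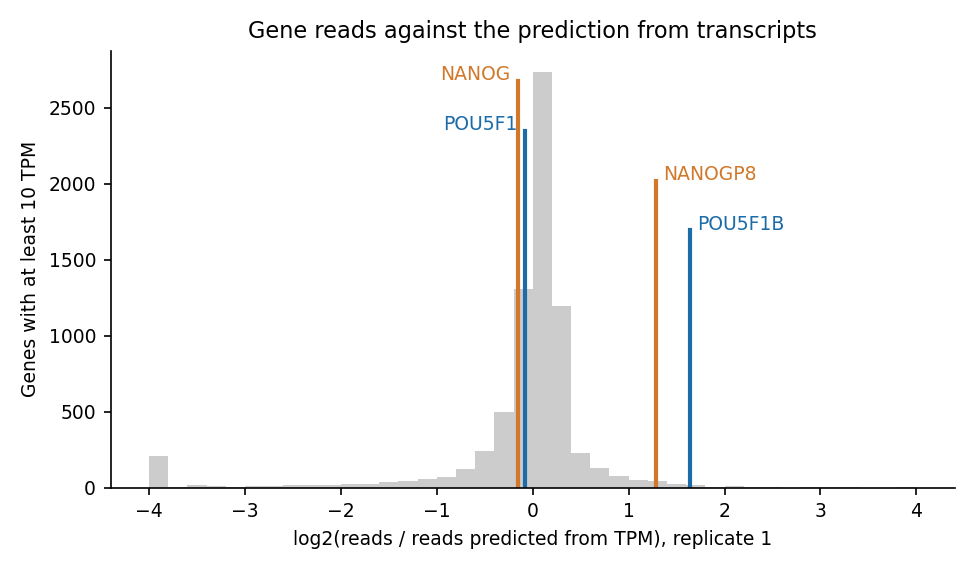
Histogram of the log2 ratio of gene reads to reads predicted from TPM in replicate 1, over genes with at least 10 TPM and a read (values beyond 4 in size are placed in the end bins), with vertical lines at NANOG, POU5F1, NANOGP8 and POU5F1B; the heights of the lines carry no value. NANOG and POU5F1 stand at -0.15 and -0.081, near the peak, while NANOGP8 and POU5F1B, the latter under 10 TPM, stand at 1.28 and 1.64; NANOGP1 has no ratio, having no reads.

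OCT4 binds DNA together with SOX proteins, and a joint OCT and SOX element in the NANOG promoter is a textbook site of this pairing. The 60 bases from chr12:7789259-7789318 (plus strand, RefSeq on GRCh38.p14) are shown because they hold such letters, in capitals:
NANOG promoter: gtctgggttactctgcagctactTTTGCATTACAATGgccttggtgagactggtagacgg
The run TTTGCATTACAATG begins 120 bases before the start of NANOG in RefSeq. Its first part, TTTGCAT, occurs on either strand in 1567 of 35116 promoters of the same length (4.46%). The whole run occurs in 1 of them, that of NANOG, from which it was read. The promoter table matched 1 of the 5 genes.

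The partners and targets of OCT4 and NANOG were taken from 2 fixed lists. Of 18 partner genes, transcription factors that act with OCT4 or NANOG in pluripotent or germ cells, 13 reached 1 CPM in both libraries. Over all 62700 genes the share was 21.7%. TFAP2C, a specification factor of primordial germ cells, was the highest partner gene, with 1255 CPM in replicate 1 and 1247 CPM in replicate 2. SOX17, the SOX protein of human germ cells, had 143 and 146 CPM, and the pluripotency factor KLF4 had 145 and 137 CPM. SOX15 had 140 and 123 CPM. SOX2, the partner of OCT4 in embryonic stem cells, had 24 reads in each library, 0.994 and 1.08 CPM, and was chosen for mention after its values were seen. No partner gene was without a read in both libraries. In the test between the libraries 3 of 15 partner genes were called, against 13.1% of all genes tested called in either direction. They were SOX15, SALL4 and PRDM1, all lower in replicate 2, as were 6.35% of all genes tested. Their log2 differences were -0.17, -0.15 and -0.18 on the scale of TMM library sizes. The median over the 15 was -0.012, against -0.00038 over all genes tested.

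Of 18 target genes, genes of pluripotent cells that OCT4 or NANOG are known to activate or that mark their activity, 14 reached 1 CPM in both libraries. Here too the share over all 62700 genes was 21.7%. L1TD1, an RNA-binding protein of embryonic stem cells, had 1008 and 930.1 CPM. LIN28A, which blocks the maturation of let-7, had 487 and 448 CPM. TRIM71, a target of let-7 that represses mRNAs, had 336 and 270.1 CPM, and DPPA4, a chromatin protein of pluripotent cells, had 290.4 and 299 CPM. DPPA5 had 0 reads in both libraries. Of 14 target genes tested, 7 were called, against 13.1% of all genes tested. The test calls smaller differences in genes with more reads, and the shares over all genes tested were not matched for read count. FGF4, a growth factor gene, was higher in replicate 2, with 15.2 and 22.7 CPM. The other 6, TRIM71, DNMT3B, L1TD1, LIN28A, ZSCAN10 and UTF1, were lower in replicate 2. Their log2 differences, with TMM library sizes, ran from -0.33 for DNMT3B, a DNA methyltransferase, to -0.11 for L1TD1. The median over the 14 was -0.15, against -0.00038 over all genes tested, and the count of calls was 7 with total reads and with DESeq2's size factors and 6 of 17 with all genes that had a read. The summed level of the embryonal carcinoma markers was 262 CPM in replicate 1 and 227 CPM in replicate 2. That list shares DNMT3B, LEFTY1, TDGF1 and GDF3 with the targets. The markers of testis somatic cells summed to 14.4 and 10.7 CPM, with SOX9 called lower in replicate 2, and those of yolk sac and trophoblast to 15.7 and 20.1 CPM, with CGA called higher. Of the 8 seminoma and germ cell markers 4 were called with TMM library sizes, 3 of them lower, against 13.1% of all genes tested. With total reads and with DESeq2's size factors 3 were called, all lower. This marker list shares LIN28A with the targets, and SOX17, TFAP2C, PRDM1 and SALL4 with the partner genes. Its 3 lower calls with TMM library sizes, PRDM1, SALL4 and LIN28A, were already counted in those lists. The part of these lists in the difference was not tested. The comparison is of 1 library with 1 other, so it has no replicate check.

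**Figure D5:**
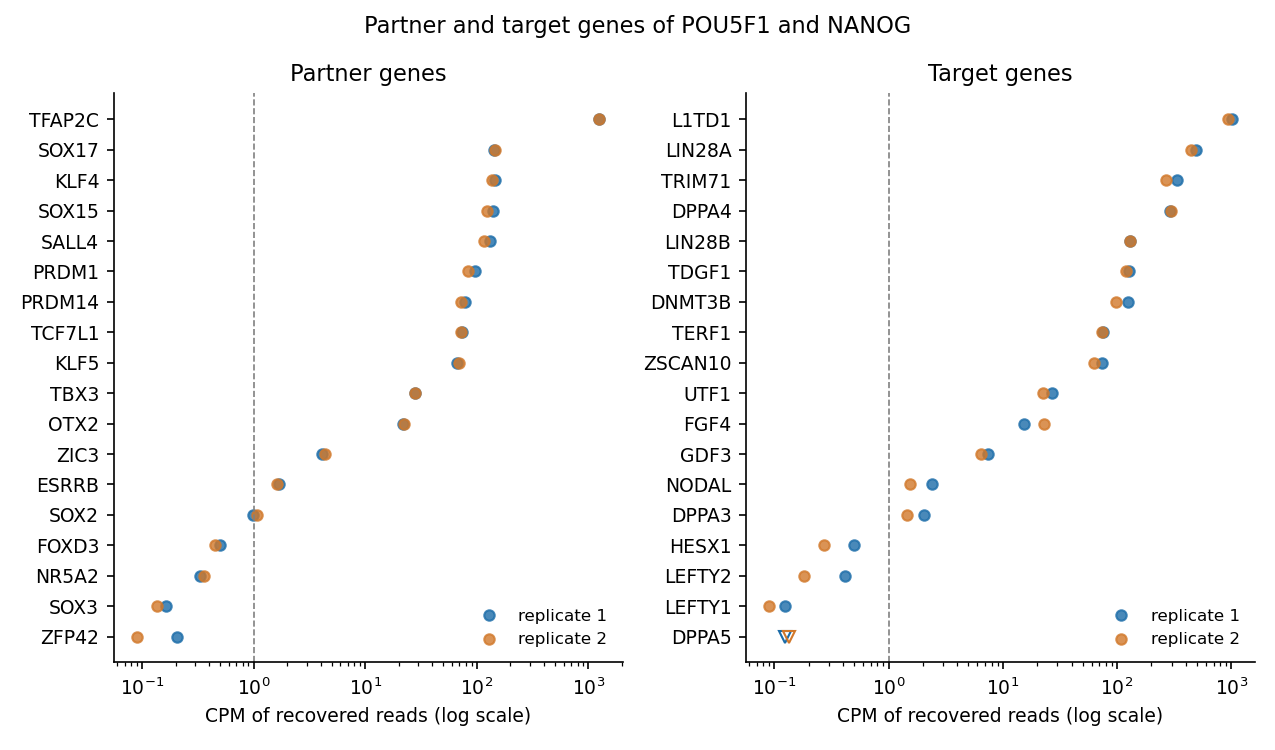
CPM of recovered reads (log scale) of the 18 partner genes (left) and 18 target genes (right) in replicate 1 (blue) and replicate 2 (orange), sorted by mean; open triangles mark the limit of 3 reads for DPPA5, which had 0 reads, and the dashed line marks 1 CPM. TFAP2C and L1TD1 are highest in their lists, and SOX2 lies at the dashed line.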

How the data were processed

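Polyadenylated RNA of 2 replicate libraries of 1 group was analysed. Per the submitters' processing notes, Trim Galore 0.6.10, STAR 2.7.11a, DESeq2 and Salmon 1.10.2 were used with GRCh38, in no stated role or order. The annotation, read length, counting rule and handling of reads that fit several genes are not given in the sources used here. The deposited transcript table holds TPM per transcript. The deposited gene table holds a signal: although its name says CPM, each value is a count of reads over a factor of its library. All values above 0 (100% in each library, tolerance 0.01) were whole multiples of the value of 1 read, which gave whole reads per gene. CPM was taken over all reads in genes. Every column of values was used.

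Transcripts were joined by identifier without version to GENCODE 29 on GRCh38, which matched 201667 of 251955 transcripts holding 94.8% of TPM in replicate 1 and in replicate 2. Gene symbols came from a table of gene names. The replicates were compared gene by gene with an exact binomial test (two-sided) over all genes that passed filterByExpr (edgeR 4.0.16, TMM effective library sizes, Benjamini-Hochberg adjustment, threshold 0.05). A run on simulated data drew counts with counting noise alone, as the test assumes. That run therefore does not check the test against the spread between real libraries. The test compares 2 libraries, not conditions. Log2 differences of gene reads are log2((CPM + 1)/(CPM + 1)), replicate 2 against replicate 1, with CPM on the library sizes of the test named beside them, which understates the change of low genes. Reads predicted from TPM are TPM times transcript length, scaled to the reads in genes. Shared stretches were exact matches on the same strand between GENCODE 29 transcripts listed in the TPM table. Coding sequences were aligned with Biopython 1.88. Wilson intervals (95%) and limits of 3 reads stand for counting error alone, as molecular identifiers are not mentioned. Nothing says that the replicates came from separate cultures, so SDs may be technical.

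Alternatives changed the denominator, pseudocount, filter, scaling (DESeq2 1.42.0), table, library, transcript set, length, stretch size and detection threshold. The members and lists were chosen with earlier results of these data known. The rule for named genes was the 5 members, other family genes with 10 or more reads in either library, neighbours within 50 kb at 1 CPM or more in both libraries, and, of the partner and target lists, the 4 highest, those called and those without a read. Any other gene named was chosen after its values were seen.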

Additional observations from a re-analysis of the deposited data

How the results depend on the processing

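No paired analysis was possible because nothing can be paired: both libraries belong to 1 group. Of 75 alternatives to 23 results, 54 were labelled the same. For differences this meant the same direction and, where tested, the same side of the threshold. For levels, shares and ratios it meant a move of no more than the SD between the libraries. Counts of genes only had to stay within a set factor of the main count. Taking each library alone always stays within that SD with 2 libraries, so it is no test of stability. Nor is the change of pseudocount, which cannot turn a direction and reuses the adjusted p. The level of NANOGP1 is 0 on any denominator. The differences on TMM library sizes carry the adjusted p of the main test. The count of 54 is therefore no measure of stability. Over reads outside mitochondrial genes, POU5F1 was at 1939 CPM and NANOG at 709.9 CPM, since the denominator shrinks. The log2 difference of POU5F1 between the libraries was 0.030 (adjusted p = 0.018) with TMM library sizes, 0.023 (0.11) with total reads and 0.021 (0.15) with DESeq2's size factors, the last pair not past the threshold. That of NANOG reversed to 0.15 in TPM, and the cause was not tested. The share of POU5F1B in its family was 0.00793% by TPM, against 0.0720% of reads. NANOG-201 held 40.6% among protein-coding transcripts alone, which leaves out NANOG-203 by construction. With transcript length less 200 bases, the mean log2 ratio of reads to prediction was -0.069 for POU5F1, 1.44 for POU5F1B, -0.21 for NANOG and 1.43 for NANOGP8. With the RefSeq length the ratio was 0.23 for NANOGP8, a fall that the longer model brings by construction. With stretches of 31, 50 and 100 bases, the share of NANOGP8 found in NANOG was 82.5%, 71.6% and 45.8%, that of NANOGP1 found in NANOG 29.6%, 22.8% and 13.6%, and that of POU5F1 found in POU5F1B 24.1%, 16.7% and 4.51%, since longer stretches meet a difference more often. Depth limits POU5F1B, whose levels rest on 39 and 25 reads.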

Other observations

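Most genes within 50 kb of the 5 genes were under 1 CPM. Over all 62700 genes, 21.7% reached 1 CPM in both libraries. Around POU5F1, 3 of 12 neighbours reached 1 CPM in both libraries. TCF19, which overlaps POU5F1 on the opposite strand, had 39.1 and 44.3 CPM. CCHCR1 had 47.1 and 42.9 CPM and PSORS1C2 had 2.53 and 2.25 CPM. Of the exonic bases of POU5F1, 8.56% lie in exons on the opposite strand. The library kit named in the labels marks strand, but whether the counting used it is not given in the sources used here. Reads of TCF19 exceeded the prediction from TPM, with log2 ratios of 0.78 and 0.49. Around NANOG, 1 of 5 neighbours reached 1 CPM, SLC2A14, with 6.01 and 7.30 CPM. Around NANOGP1, 2 of 7 did: SLC2A14, whose span on the opposite strand overlaps that of NANOGP1, and SLC2A3, with 954 and 1026 CPM. SLC2A3 and SLC2A14 encode closely related glucose transporters, so the split of reads between them is uncertain. Of the 4 neighbours of NANOGP8 and the 4 of POU5F1B, 0 reached 1 CPM in both libraries.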
